A study of Mus musculus with 16 samples.

Results

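Apc and 7 other genes of the β-catenin destruction complex were followed in protrusions and cell bodies of NIH/3T3 cells, a mouse fibroblast line. The 8 genes were taken by name from the 13015 genes of the deposited table, and all 8 were measured in all 16 libraries. They were the scaffolds Apc and Axin1, the kinases Gsk3a, Gsk3b and Csnk1a1, the substrate Ctnnb1 (β-catenin), and Btrc and Fbxw11, which encode the F-box proteins β-TrCP1 and β-TrCP2. Cells carried either a control siRNA (siControl) or siRNA against Apc (siAPC), an RNA that triggers degradation of its target mRNA, and the labels do not say which Apc siRNA sequence was used. Plating, stimulation and fixation were the same in all groups. Serum-starved cells sat for 2 h on filters with 3.0 µm pores, were given lysophosphatidic acid (LPA), a lipid that attracts fibroblasts, from below for 1 h, and were fixed for 10 min with 0.3% paraformaldehyde. The part of the cells below the filter formed the protrusion fraction (Ps) and the part above it the cell body fraction (CB). The study took the fractions from separate filters, more of them for protrusions, and wiped away the other part. Both fractions of both kinds of cells were sequenced, in 4 groups of 4 libraries each. The cell line had not been authenticated according to the methods of the study, and it stands for 1 fibroblast line only.

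The destruction complex keeps cytoplasmic β-catenin low. Axin and APC hold β-catenin while casein kinase 1α and glycogen synthase kinase 3 phosphorylate it, a β-TrCP protein recognizes the phosphorylated form, and the SCF ubiquitin ligase marks it for the proteasome. When APC is lost, as in most colorectal tumors, β-catenin escapes and enters the nucleus with TCF/LEF factors. APC also binds microtubule plus ends and was studied here for its part in carrying RNAs into protrusions, and β-catenin also links cadherins to actin at cell junctions. The table holds mRNA levels, so protein amount, phosphorylation and complex assembly were not measured. The question was whether lowering Apc mRNA changed the mRNAs of its partners, and where in the cell each of these mRNAs was found.

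Values are log2 CPM, the reads of a gene relative to a library size that the authors had scaled. Libraries held 13466225 to 20296087 reads in listed genes. The smallest number taken as detectable, 3 reads, corresponds to log2 values of -2.73 to -1.80, which include 0.5 reads added before the logarithm. Fractions were compared per unit of RNA, so the amount of RNA in each fraction cannot be read from these values. The mitochondrial share of reads was 1.39% to 1.95% in siControl CB and 2.65% to 4.16% in siControl Ps. In siAPC it was 1.37% to 1.63% in CB and 2.18% to 2.86% in Ps, and its link to the fraction differences was not tested. All 10 fibroblast markers of a fixed list were listed, with a summed level of 38969.9 to 42540.7 CPM in siControl CB and 23297.5 to 25713.3 CPM in siControl Ps, and of 49354.3 to 54658.7 and 28401.1 to 31032.8 CPM in the same fractions of siAPC. Of 5 epithelial markers only Cdh1 and Krt8 were in the table, with a sum of at most 10.7 CPM. Malat1 and Neat1, RNAs that stay in the nucleus, were lower in Ps than in CB of siControl by log2 changes of -2.77 (adjusted p = 1.59e-06) and -1.76 (adjusted p = 1.52e-05). In each group a single library read low for GC-rich genes, namely replicate 3 in siControl CB and replicate 2 elsewhere. Their Spearman correlations between GC content and the deviation from the other replicates lay between -0.645 and -0.525 across 9878 genes, and genes are not replicates. The other 12 libraries had -0.04 to 0.53 by the same measure, which sets each library against its group, so that a low library raises the values of the rest. Which libraries depart from the true GC dependence cannot be told from this.

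The 8 genes lie on 7 chromosomes of the mouse assembly GRCm38, and all are annotated as protein coding. Apc lies on chromosome 18 from 34220924 to 34322552 and Csnk1a1 on the same chromosome from 61555274 to 61590061, both on the plus strand. Axin1 occupies 26138688 to 26195811 of chromosome 17, Gsk3b 38089001 to 38246084 of chromosome 16, and Ctnnb1 120929216 to 120960507 of chromosome 9, all on the plus strand. Gsk3a occupies 25228258 to 25237851 of chromosome 7 on the minus strand. Btrc occupies 45363734 to 45530013 of chromosome 19 and Fbxw11 32642724 to 32746816 of chromosome 11, both on the plus strand. Exons of Gsk3a share 820 bases (28.3% of its exon length) with the antisense gene 9130221H12Rik, those of Ctnnb1 share 759 bases (14.6%) with Ulk4 on the opposite strand, and those of Btrc share 235 bases (1.39%) with the pseudogene Gm6807. No source states that strand was used in counting, so a part of the reads of these 3 genes may belong to the neighbor.

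Ctnnb1 was by far the most abundant mRNA of the 8 and Apc the least. Per kilobase of exon, the level in siControl CB was 82.6 CPM for Ctnnb1, 35.0 CPM for Gsk3a, 32.9 CPM for Axin1 and 24.7 CPM for Fbxw11. It was 10.5 CPM per kilobase for Csnk1a1, 4.72 for Gsk3b, 1.97 for Btrc and 0.378 for Apc. The order of these 8 levels was the same in the other 3 groups. Neighbors in the order had separate ranges over the 4 libraries in every group, with the exception of Gsk3a and Axin1 in siControl CB. The middle of the order depends on the gene length that is used, since Btrc and Csnk1a1 have long annotated exon sets. With the longest single transcript as the length, Csnk1a1 reached 27.0 CPM per kilobase in siControl CB, a range that overlapped the 26.6 of Fbxw11. Btrc then stood above Gsk3b, at 7.07 against 5.58 CPM per kilobase, and Ctnnb1, Gsk3a, Axin1 and Apc kept their places in siControl CB. Between the paralogs, Gsk3a exceeded Gsk3b and Fbxw11 exceeded Btrc by either length.

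**Figure D1:**
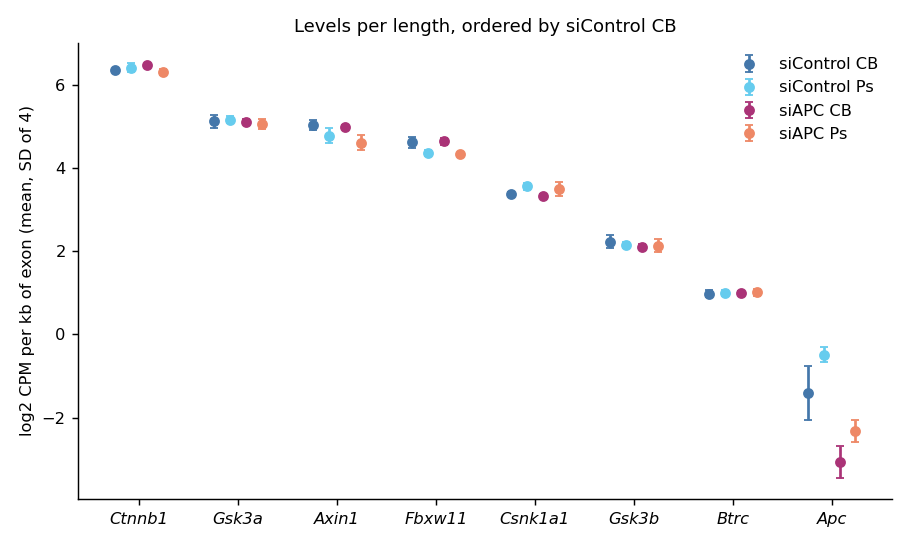
Level of each mRNA per kilobase of exon (log2 CPM per kilobase, y axis; points are means and bars the SD of 4 libraries) for the 8 genes ordered by siControl CB, in the 4 groups. Ctnnb1 stands highest and Apc lowest in each group, and Apc is the gene whose groups lie farthest apart.

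Apc was the one gene of the 8 whose level fell with its own siRNA in both fractions. The log2 values of Apc in replicates 1 to 4 were 2.13, 2.59, 3.54 and 2.17 in siControl CB and 0.54, 1.42, 1.02 and 0.75 in siAPC CB. In Ps they were 3.52, 3.73, 3.29 and 3.56 with siControl and 1.63, 1.90, 1.87 and 1.33 with siAPC. No siAPC library reached any siControl library of its fraction (groups were apart for 20.9% of all genes in CB and 22.6% in Ps), so that the siRNA labels hold in each library. The numbers of reads behind these values were small, 73 to 269 in CB and 142 to 167 in Ps of siControl, and 29 to 52 in CB and 41 to 69 in Ps of siAPC. The remaining level was 31.3% of siControl in CB (95% interval 21.7% to 45.3%) and 27.9% in Ps (19.3% to 40.3%). Apc stood in the lowest 0.123% of all genes for this change in CB and in the lowest 0.131% in Ps. The log2 fold change in CB was between -1.84 and -1.36 when any single library was left out, the latter without replicate 3 of siControl CB.

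**Figure D2:**
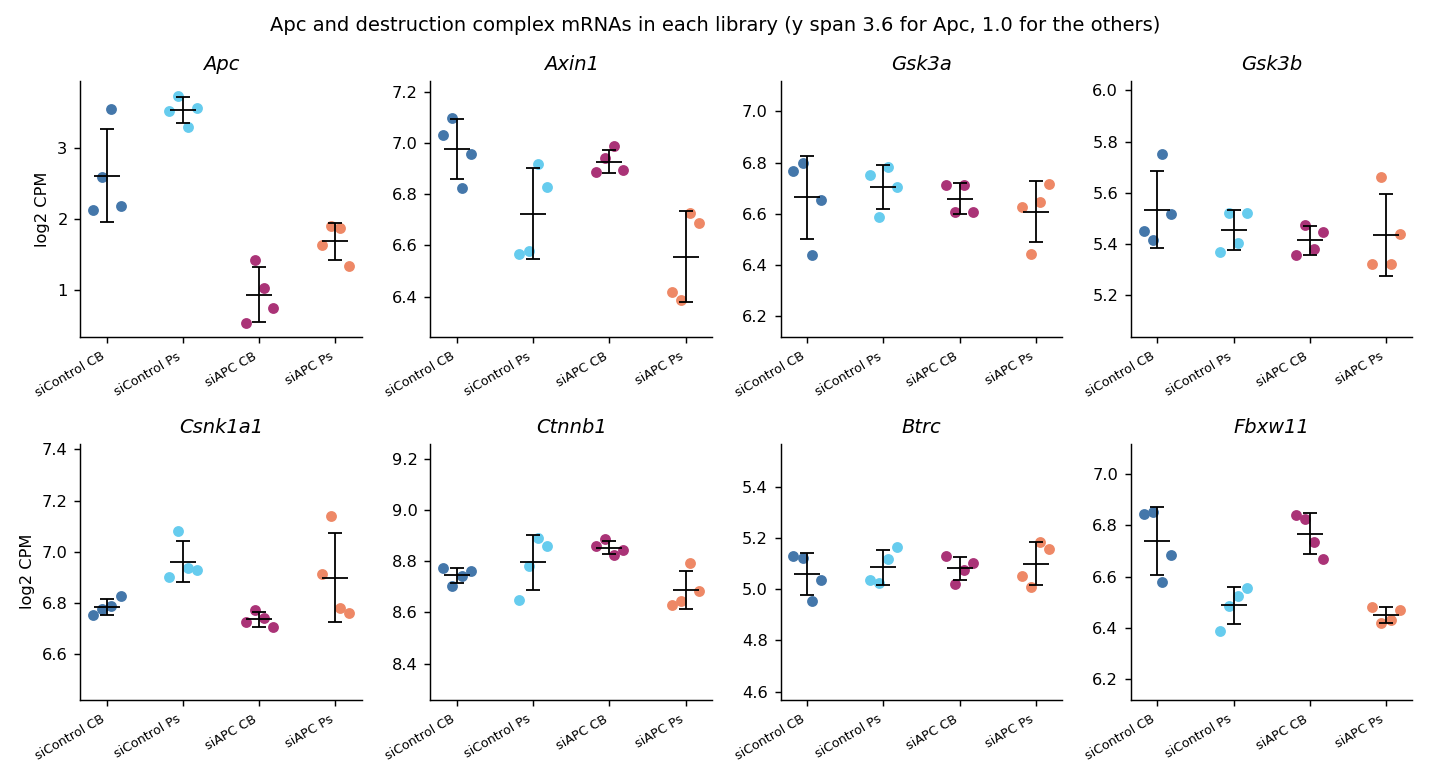
Level of the 8 mRNAs (log2 CPM, y axis) in the 16 libraries; each point is a library, replicates 1 to 4 from left to right within a group, and bars give mean and SD of 4. The siAPC points of Apc lie below all siControl points of the same fraction, while points of the other genes differ by less than 1 log2 unit over all groups.

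The partners of Apc showed no change of that size. In CB, 1 of the 8 genes (Apc, lower) passed an adjusted p below 0.05, against 13.4% of all genes (7.52% higher and 5.87% lower). That share of all genes was 8.9% without replicate 4 of siAPC CB. The other 7 genes had log2 fold changes from -0.12 to 0.11 with adjusted p from 0.251 to 0.976. In Ps it was again Apc alone, against 22% of all genes (10.7% higher and 11.2% lower), and the other 7 ranged from -0.17 to 0.01 with adjusted p from 0.204 to 0.917. The 95% intervals of these 7 genes reached from -0.30 to 0.23 in CB and from -0.36 to 0.16 in Ps, and each of the 14 intervals included 0. With replicate number as a block in the model, the Ps intervals of Axin1 (-0.29 to -0.045) and Ctnnb1 (-0.21 to -0.0052) lay below 0. That of Ctnnb1 in CB (0.0049 to 0.21) lay above 0, and of these only Axin1 in Ps was called (limma adjusted p = 0.0462). In CB, same-numbered libraries of the siRNAs did not deviate together in every pair (correlations -0.336 to 0.269). Replicate number was therefore not shown to be a block there. The median over the 7 was -0.01 in CB and -0.06 in Ps, beside -0.04 and -0.02 over all genes. When values were scaled to the total of listed reads in place of the deposited scaling, the median of all genes in Ps moved to 0.14, and Gsk3a, Gsk3b, Csnk1a1, Ctnnb1 and Fbxw11, which had been slightly lower with siAPC in Ps, came out between 0.06 and 0.15, on both sides of that shift. Over the whole table that scaling also changed the split of calls in Ps, from 1393 higher and 1464 lower to 2943 higher and 550 lower. The scaled library size divided by the listed reads was 0.801 to 0.908 in siControl Ps and 0.968 to 0.995 in siAPC Ps, and its part in the small values was not tested.

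**Figure D3:**
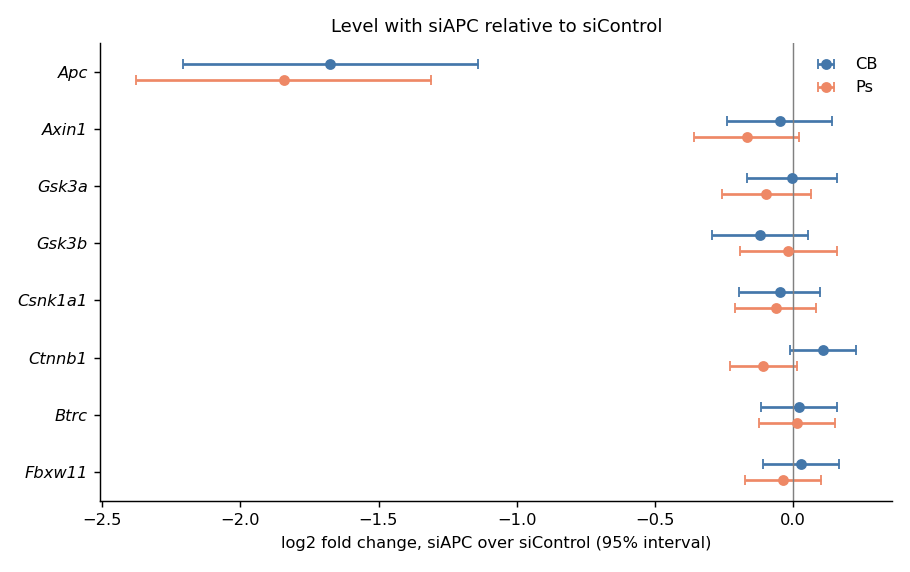
Log2 fold change of siAPC over siControl (x axis) for the 8 genes in CB and in Ps; points are estimates of the limma model and bars 95% intervals. Apc lies at -1.67 in CB and -1.84 in Ps, and the intervals of the other 7 genes all include 0 in this fit, which has no block.

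Axin1, the scaffold around which the complex assembles, was the partner with the lowest log2 fold change for siAPC in Ps. Its log2 values in siControl Ps were 6.57, 6.58, 6.92 and 6.83, and in siAPC Ps 6.42, 6.39, 6.73 and 6.69. The groups overlapped, because replicates 1 and 2 were low and replicates 3 and 4 high with either siRNA, and within each replicate number siAPC was the lower one, by -0.19 to -0.14. The log2 fold change was -0.17 (SE 0.09, adjusted p = 0.209), and with replicate number as a replicate block the adjusted p was 0.0462. Scaled to total listed reads the difference was -0.0043, against a shift of all genes of 0.14. In CB the values were 7.03, 7.10, 6.82 and 6.96 with siControl and 6.89, 6.94, 6.99 and 6.89 with siAPC, a difference of -0.05 (adjusted p = 0.779). Axin2, the induced paralog of Axin1, was not analysed here.

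β-catenin mRNA was measured most precisely of the 8, from 4996 to 10057 reads per library. The log2 values of Ctnnb1 in CB were 8.77, 8.70, 8.74 and 8.76 with siControl and 8.86, 8.89, 8.82 and 8.84 with siAPC. All 4 siAPC libraries were higher than all 4 siControl libraries, as was the case in one direction or the other for 20.9% of all genes in this comparison. The difference was 0.11 (SE 0.06, 95% interval -0.01 to 0.23) and was not called (adjusted p = 0.251). In Ps the values were 8.65, 8.78, 8.89 and 8.86 with siControl and 8.63, 8.64, 8.79 and 8.68 with siAPC. Here siAPC was the lower one in 4 of 4 replicate numbers, while the ranges overlapped, with a log2 fold change of -0.11 (SE 0.06, adjusted p = 0.204). Without replicate 1 of siControl Ps, the lowest of its group, the value was -0.16 (adjusted p = 0.0494). That was the lowest adjusted p with any single library left out. Over these limma fits the value lay between -0.16 and -0.08, with adjusted p from 0.0494 to 0.441.

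Among the kinases, Gsk3a and Gsk3b encode the closely related α and β forms of glycogen synthase kinase 3. The log2 values of Gsk3a were 6.77, 6.80, 6.44 and 6.65 in siControl CB, 6.71, 6.61, 6.71 and 6.61 in siAPC CB, 6.75, 6.59, 6.78 and 6.70 in siControl Ps, and 6.63, 6.44, 6.65 and 6.72 in siAPC Ps. Those of Gsk3b were 5.45, 5.42, 5.75 and 5.52 in siControl CB, 5.36, 5.47, 5.38 and 5.45 in siAPC CB, 5.37, 5.52, 5.41 and 5.52 in siControl Ps, and 5.32, 5.66, 5.32 and 5.44 in siAPC Ps. For both genes all 4 groups overlapped. Neither passed the test in any of the 5 comparisons, with log2 differences from -0.12 to 0.10. Scaled to total listed reads, both were called lower in Ps of siControl, Gsk3a at -0.26 (adjusted p = 0.00155) and Gsk3b at -0.38 (adjusted p = 0.00551), and Gsk3a also in Ps of siAPC at -0.21 (adjusted p = 0.00829), beside the shifts of all genes of -0.30 and -0.14. Their levels moved in opposite directions over the 16 libraries (Pearson r = -0.725), a description of libraries that share groups and a GC trend. Gsk3a has 59.8% GC in its longest transcript and Gsk3b 46.1%, and a link of GC content to their opposite movement was not tested. The log2 ratio of Gsk3a to Gsk3b changed by -0.08 to 0.12 in the 4 comparisons of groups (exact two-sided permutation p from 0.629 to 0.743).

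Apc mRNA was higher in protrusions than in cell bodies, in both siRNA groups. In siControl its level in Ps was 1.89-fold that in CB, a log2 difference of 0.92 (SE 0.25, adjusted p = 0.00434), which exceeded the value of 91.0% of all genes. The ranges overlapped, because replicate 3 of siControl CB, at 3.54, lay within the Ps values while the other 3 CB libraries did not exceed 2.59. Without that library the difference was 1.23. In siAPC the difference was 0.75 (SE 0.25, adjusted p = 0.0159), or 1.68-fold, with Ps higher in 4 of 4 replicate numbers and overlapping ranges. Without replicate 1 of siAPC CB, the lowest of its group, the siAPC value was 0.62 (adjusted p = 0.0595), and with voom precision weights it was 0.76 (adjusted p = 0.0636). Relative to total listed reads the differences were 0.62 (adjusted p = 0.0627) in siControl and 0.59 (adjusted p = 0.0756) in siAPC, beside shifts of all genes of -0.30 and -0.14. With the rule of the study for a Ps-enriched RNA, more than 2-fold higher in Ps with p below 0.05 before adjustment, 0 of the 8 mRNAs were Ps-enriched in siControl (against 7.19% of all genes) and 0 in siAPC (7.67%), and Apc met it in siControl once replicate 3 of siControl CB was left out.

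The remaining genes differed less between fractions than Apc, in either direction. Of the 8 genes, 4 passed the adjusted threshold for Ps against CB in siControl, Apc and Csnk1a1 higher and Axin1 and Fbxw11 lower, against 60.3% of all genes (29.1% higher and 31.2% lower). In siAPC 4 passed, Apc higher and Axin1, Ctnnb1 and Fbxw11 lower, against 60.7% of all genes (29.8% higher and 30.9% lower). The share of the 8 called was 50% in both. Scaling to total listed reads changed these calls. In siControl it left 0 of the 8 higher and 6 lower, namely Axin1, Gsk3a, Gsk3b, Ctnnb1, Btrc and Fbxw11, a share of 75% against 63% of all genes. In siAPC it left 0 higher and 4 lower, namely Axin1, Gsk3a, Ctnnb1 and Fbxw11, a share of 50% against 60.8% of all genes. The same scaling shifted the whole-table split from 3792 higher and 4058 lower to 2005 and 6193 in siControl, and from 3877 and 4024 to 2793 and 5114 in siAPC.

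**Figure D4:**
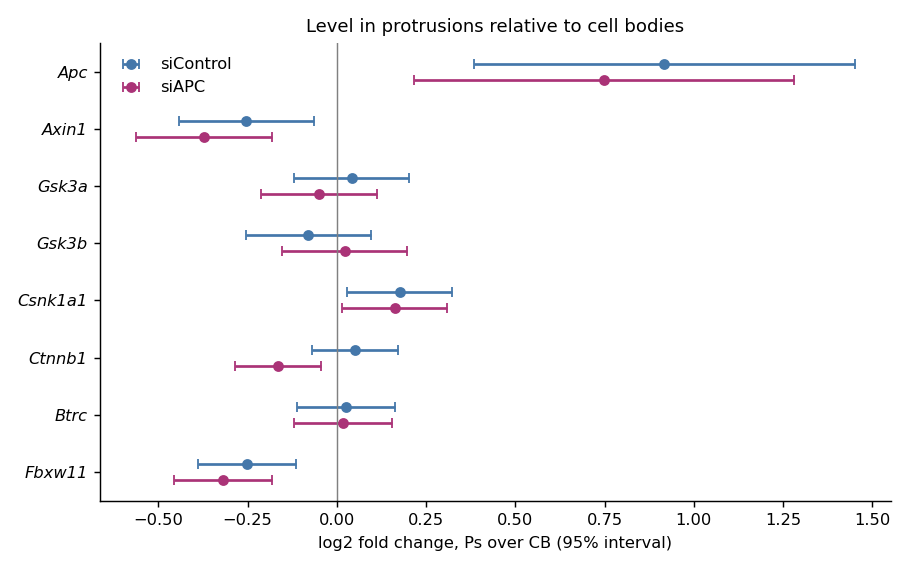
Log2 fold change of Ps over CB (x axis) for the 8 genes in siControl and in siAPC; points are estimates of the limma model and bars 95% intervals. Apc lies highest at 0.92 and 0.75, Axin1 and Fbxw11 lie below 0 in both, and Ctnnb1 lies at 0.05 in siControl and -0.17 in siAPC.

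Fbxw11, whose product binds phosphorylated β-catenin, was the most regular of these. Its log2 values were 6.84, 6.85, 6.58 and 6.68 in siControl CB and 6.39, 6.48, 6.52 and 6.56 in siControl Ps. In siAPC they were 6.84, 6.83, 6.74 and 6.67 in CB and 6.48, 6.42, 6.43 and 6.47 in Ps. Every Ps library was below every CB library of its siRNA, as fractions were apart for 50.5% of all genes in siControl and for 58.6% in siAPC. Ps differed from CB by -0.25 (SE 0.07, adjusted p = 0.00276) in siControl and by -0.32 (SE 0.07, adjusted p = 0.000374) in siAPC, and it kept its sign and its call in each alternative that was run. Its level did not pass the test for siAPC against siControl, with 0.03 in CB (adjusted p = 0.823) and -0.04 in Ps (adjusted p = 0.758).

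Btrc, the paralog of Fbxw11, had nearly level values throughout. They were 5.13, 5.12, 4.95 and 5.04 in siControl CB, 5.04, 5.02, 5.12 and 5.16 in siControl Ps, 5.13, 5.02, 5.07 and 5.10 in siAPC CB, and 5.05, 5.01, 5.18 and 5.16 in siAPC Ps. All 4 groups overlapped, and the log2 differences in the 5 comparisons lay between -0.01 and 0.02. Scaled to total listed reads, Btrc was called lower in Ps of siControl at -0.27 (adjusted p = 0.00153), beside the shift of -0.30. The log2 ratio of Btrc to Fbxw11 was also compared between fractions, which reuses the Fbxw11 values above. Its mean was -1.68 in siControl CB and -1.40 in siControl Ps (difference 0.28). In siAPC the means were -1.69 and -1.35 (difference 0.34), and the ranges were apart with either siRNA. The exact two-sided permutation p was 0.0286 in each, the smallest that 4 libraries against 4 allow. Adjusted over the 8 paralog comparisons it was 0.114, so neither difference passed. Unlike a single level, this ratio does not change when a library is multiplied by a constant.

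Axin1 was lower in Ps with either siRNA. The siControl values given above overlapped between fractions, since replicate 3 was 6.82 in CB and 6.92 in Ps, and the difference was -0.25 (SE 0.09, adjusted p = 0.0211). Leaving out replicate 1 or 2 of siControl CB or replicate 1 or 2 of siControl Ps took the adjusted p to between 0.0534 and 0.0791, and median centring of the libraries to 0.0895. The difference lay between -0.32 and -0.20 with any single library left out and was -0.18 with median centring. In siAPC all Ps values (6.39 to 6.73) were below all CB values (6.89 to 6.99), with a log2 fold change of -0.37 (SE 0.09, adjusted p = 0.00157). Relative to total listed reads Axin1 and Fbxw11 were both lower in Ps by -0.55 in siControl, beyond the shift of -0.30 of all genes.

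Csnk1a1, the kinase that primes β-catenin for glycogen synthase kinase 3, had higher values in Ps. In siControl they were 6.75, 6.78, 6.79 and 6.83 in CB and 6.90, 7.08, 6.94 and 6.93 in Ps, and the ranges did not overlap. The difference was 0.18 (SE 0.07, adjusted p = 0.0365), and it lay between 0.14 and 0.20 with any single library left out. Without replicate 1 or 2 of siControl CB or replicate 2 of siControl Ps the adjusted p was 0.0666 to 0.117. It was 0.0565 when limma was fitted with no intensity trend. In siAPC the values were 6.73, 6.77, 6.74 and 6.70 in CB and 6.91, 7.14, 6.78 and 6.76 in Ps. Ps was higher in 4 of 4 replicate numbers but replicate 4 of Ps lay below replicate 2 of CB, and the difference was 0.16 (adjusted p = 0.0526, or 0.0369 with the replicate block). The adjusted p was also below the threshold with quantile normalization (0.017), median centring (0.00767) and the filter on low values (0.0464). Without replicate 2 of siAPC Ps the difference was 0.08 (adjusted p = 0.247). Relative to total listed reads Csnk1a1 was at -0.12 in siControl and 0.01 in siAPC, which is higher than the shifts of all genes of -0.30 and -0.14.

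Ctnnb1 differed between fractions with siAPC. In siAPC every Ps library (8.63 to 8.79) was below every CB library (8.82 to 8.89), with a log2 fold change of -0.17 (SE 0.06, adjusted p = 0.0181). The adjusted p was 0.0583 without replicate 1 of siAPC Ps, 0.0717 when the 4 libraries with a negative GC trend were omitted and 0.115 with centring of each library on its median. The log2 fold change was -0.15 in the first of these and -0.10 in the last. In siControl the difference was 0.05 (SE 0.06, adjusted p = 0.471), with Ps higher in 3 of 4 replicate numbers, and scaled to total listed reads it was -0.25 (adjusted p = 0.00614), beside the shift of -0.30. The difference between these values, written log2(Diff FC), was -0.22 (SE 0.08, 95% interval -0.39 to -0.05), and it was below 0 in 4 of 4 replicate numbers, from -0.32 to -0.11. Same-numbered Ps and CB libraries of siControl did not deviate together in every pair (correlations -0.121 to 0.432). Replicate numbers were thus not shown to pair them, which limits both counts over replicate numbers. In limma the unadjusted p of log2(Diff FC) was 0.016 and its adjusted p over all genes 0.981, so it did not pass. Scaled to total listed reads it was -0.07, beside a shift of all genes of 0.15.

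No gene of the 8 passed the test of log2(Diff FC) in limma, against 0.0231% of all genes (3 of 13015). At an unadjusted p below 0.05 there was 1 of the 8, Ctnnb1, and 492 of all genes (3.78%). For Apc log2(Diff FC) was -0.17 with a 95% interval of -0.92 to 0.58. It lay between -0.48 and -0.01 when any single library was left out, with -0.48 (95% interval -1.06 to 0.10) without replicate 3 of siControl CB. The other 6 genes lay between -0.12 and 0.10.

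Apc was the highest library of its group in each of the 4 libraries with a negative GC trend. It exceeded the mean of the other 3 replicates there by 1.24 in CB and 0.28 in Ps of siControl, and by 0.65 in CB and 0.29 in Ps of siAPC. Gsk3b and Csnk1a1 were the highest in 3 of these 4 libraries, while Gsk3a and Btrc were the lowest in all 4. The mean deviation had a Pearson correlation of -0.511 with GC content over the 8 genes, with Btrc, the gene of lowest GC content (40.6%), on the other side of the trend. These 4 libraries were chosen for a negative GC trend across all genes. The sign of this correlation is therefore no independent result, and genes are not replicates. Without these 4 libraries, Apc was lower with siAPC by log2 fold changes of -1.53 in CB and -1.85 in Ps, and the Ps to CB difference of Apc was 1.16 in siControl and 0.84 in siAPC.

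**Figure D5:**
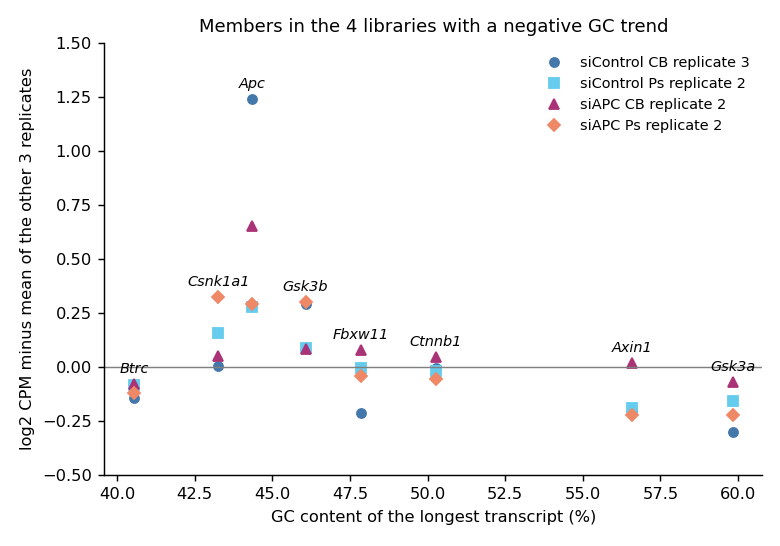
Deviation of each gene from the mean of the other 3 replicates of its group (log2 CPM, y axis) in the 4 libraries with a negative GC trend, against GC content of its longest transcript (percent, x axis); each symbol is a library. All 4 Apc symbols lie above 0, that of siControl CB at 1.24, and all symbols of Gsk3a and Btrc lie below 0.

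Genes whose levels followed those of the 8 over the 16 libraries were sought among the 10292 genes whose mean log2 value was 1 or more. For Apc the closest were Dcaf6 (Pearson r = 0.951), Tulp4 (0.938), Capn2 (0.936), Eif2ak4 (0.934) and Aldh1l2 (0.931). For siAPC against siControl in CB these 5 genes had log2 fold changes of -0.44 to -0.27, beside -1.67 for Apc, and for Ps against CB in siControl they had 0.05 to 0.39, beside 0.92. The closest to Axin1 were Mybbp1a (0.967) and Ttc7 (0.962), and to Fbxw11 Rasa3 (0.965) and Wbp1l (0.964). Ctnnb1 had the loosest match, Myh9 at 0.779. These correlations are over libraries that share groups, and Axin1 and Fbxw11 also followed each other (0.820).

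Other components of the pathway were examined as lists. Of 26 paralogs and partners of the complex, 22 were in the table, and with siAPC in CB 1 was higher and 1 lower, against 13.4% of all genes called. These were Csnk1e, a casein kinase 1 that acts on Dishevelled, at 0.35 (adjusted p = 0.0165), and Tnks2, a tankyrase that marks Axin for degradation, at -0.30 (adjusted p = 0.0458). The Tnks2 call was lost with total listed reads, quantile normalization and median centring, where 0 of the list were lower. In Ps 2 were higher and 0 lower, against 22% of all genes called, and Csnk1e was at 0.29 (adjusted p = 0.0314). The median of the list was 0.02 in CB and -0.01 in Ps. For Ps against CB in siControl 7 were higher and 9 lower, against 29.1% and 31.2% of all genes, among them the phosphatase subunit Ppp2r5c at 0.68 (adjusted p = 1.79e-08) and the Dishevelled genes Dvl1 at -0.60 (adjusted p = 9.29e-08) and Dvl2 at -0.73 (adjusted p = 2.3e-05), with a median of -0.10. Scaled to total listed reads, a check on the lists chosen after seeing the data, the counts were 4 higher and 0 lower with siAPC in CB, 7 and 0 in Ps, and 1 and 13 for Ps against CB in siControl.

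The ubiquitin ligase core that β-TrCP works with formed the next list. Of 10 listed genes of the SCF core and its regulators, 7 were higher and 2 lower in Ps of siControl, against 29.1% higher and 31.2% lower of all genes, with a median of 0.60 beside -0.00091 over all genes. They included Skp1a, which joins F-box proteins to the ligase, at 0.91 (adjusted p = 1.27e-07), Rbx1, which binds the ubiquitin-conjugating enzyme, at 0.81 (adjusted p = 1.74e-09), and Nedd8, the modifier that activates cullins, at 0.82 (adjusted p = 5.23e-09). With siAPC 0 of the 10 passed in CB, against 13.4% of all genes called. In Ps 1 of the 10 passed, against 22% of all genes, namely Rbx1 at -0.21 (adjusted p = 0.0178). After scaling to total listed reads, 6 of the 10 were higher and 3 lower in Ps of siControl, with a median of 0.30 beside -0.30 over all genes, and 2 were higher and 0 lower with siAPC in Ps.

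Genes that tie β-catenin and APC to adhesion and the cytoskeleton were examined as 2 further lists. None of the 6 listed cadherin and catenin genes passed for siAPC in either fraction in limma, against 13.4% of all genes called in CB and 22% in Ps, and a count of 0 among so few genes is near those shares. Jup, the closest relative of Ctnnb1, was at 0.23 in CB (adjusted p = 0.116). Quantile normalization gave 1 higher in each fraction, and scaling to total listed reads gave 2 higher and 0 lower in Ps. In Ps of siControl 1 of the 6 was higher and 3 lower, a share near the 60.3% of all genes called, with Ctnnd1 at 0.37 (adjusted p = 0.000869) and the N-cadherin gene Cdh2 at -0.93 (adjusted p = 1.44e-06). Of 11 listed cytoskeletal partners of APC, Mapre2, which encodes the plus-end protein EB2, was lower with siAPC at -0.40 in CB (adjusted p = 0.000284), where 0 were higher and 1 lower against 13.4% of all genes called. In Ps 1 was higher and 2 lower, against 22% of all genes called, namely Dlg1, which encodes a scaffold that binds APC, at 0.55 (adjusted p = 0.00625), Mapre2 at -0.44 (adjusted p = 6.96e-05) and Iqgap1, which encodes an actin-binding scaffold, at -0.36 (adjusted p = 0.00281). Mapre1, which encodes the APC-binding protein EB1, was at 0.01 in CB (adjusted p = 0.920). For Ps against CB in siControl 6 of the 11 were higher and 1 lower, so that the share called was near the 60.3% of all genes, led by the kinesin gene Kif5b at 1.61 (adjusted p = 4.04e-06), with Kifap3 at 0.68 (adjusted p = 0.000743) and Mapre1 at 0.66 (adjusted p = 1.04e-08). With scaling to total listed reads the cytoskeletal counts were 4 higher and 1 lower with siAPC in Ps, and 2 higher and 3 lower for Ps against CB in siControl, where those of the cadherin and catenin list were 0 higher and 4 lower.

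Known β-catenin target genes, which read out the activity of the protein rather than the level of its mRNA, were examined last. Of 14 listed targets 8 were in the table, which keeps genes above a low level in at least 1 library, and the other 6 were not analysed here. Nkd2 and Rnf43 had no reads in control cells, so they entered the table through siAPC and are described singly. Of the 6 targets with reads in siControl, 2 were higher and 0 lower in CB, against 7.52% higher and 5.87% lower of all genes, and 3 were higher and 0 lower in Ps, against 10.7% and 11.2%. Nkd2, a Dishevelled-binding antagonist, had 0 reads in all 8 siControl libraries and 83 to 118 in siAPC CB. Set against a floor of 3 reads per library, it was at least 31.8-fold higher. This bound used reads without the 0.5 that is added to them in the log2 values. Rnf43, a ubiquitin ligase for Wnt receptors, had 0 reads in all 8 siControl libraries and 25 to 52 in siAPC CB. On the same basis it was at least 11.1-fold higher. Ccnd1, which encodes cyclin D1, was higher by a log2 fold change of 2.30 (SE 0.17, adjusted p = 2.35e-08) and Apcdd1 by 1.49 (adjusted p = 6.99e-08) in CB. Myc was at -0.10 in CB (adjusted p = 0.807). The list was chosen with earlier results of these data known and is no independent evidence of direction.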

How the data were processed

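The authors made 16 stranded libraries of NIH/3T3 cells from total RNA with a TruSeq Stranded mRNA kit. They sequenced these as paired reads, aligned them to mm10 and counted reads per gene. The submitters' processing notes name bcl2fastq 1.8.4, STAR 2.4.2a and limma 3.26.1. The authors deposited log2 CPM made by limma-voom (reads plus 0.5 over a scaled library size). Inverting this gave whole reads for 100% of 208240 values, within 0.001 reads, which supplied read numbers and depths. Floors cover counting error only.

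Groups came from the labels. The study describes the replicates as independent and as replicate experiments. The labels do not say which culture gave each library, so p-values measure the spread between these libraries. All tests of single genes used limma 3.58.1 (R 4.3.3; lmFit, then eBayes with trend) fitted to the log2 values of all 16 libraries, with 4 group means and no block, and Benjamini-Hochberg adjustment over 13015 genes at 0.05. The 5 contrasts were siAPC against siControl in CB and in Ps, Ps against CB in each siRNA, and their difference. The model was tested on simulated data. Paralog ratios used exact permutation tests. Gene positions, lengths and GC content came from GENCODE M21 (12426 genes, 95.5%, matched by symbol), a later release than the one the authors used.

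Same-numbered libraries deviated together over 10292 genes for Ps and CB in siAPC (correlations 0.416 to 0.617) and for siAPC and siControl in Ps (0.162 to 0.551), but not in every pair of Ps and CB in siControl (-0.121 to 0.432) or of the siRNAs in CB (-0.336 to 0.269). Different-numbered libraries had -0.592 to 0.572 in the first of these comparisons (mean -0.165, beside 0.502 for equal numbers). In the second they had -0.484 to 0.347 (mean -0.112, beside 0.345). Some of them were thus as alike as libraries of equal number. The paired fit is given beside results of the first 2 comparisons where it changed a call, and for siAPC intervals that no longer included 0. The 8 members, the gene lists and the tests were chosen with earlier results of these data known. Named genes were the 8 members, their closest matches by correlation and, per list, up to 3 genes with the lowest p for siAPC in CB and up to 3 for Ps against CB in siControl. Myc and Dlg1 were named after their values were seen. Alternatives were other scalings, array weights, voom precision weights, no intensity trend, another pseudocount, a filter on low values, a replicate block and leaving out libraries.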

Additional observations from a re-analysis of the deposited data

Results flagged for a closer look

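Of the 8 genes, Ctnnb1 was singled out because its 4 same-numbered differences of siAPC from siControl were all above 0 in CB (0.08 to 0.18) and all below 0 in Ps (-0.18 to -0.02). The size of this contrast, log2(Diff FC), was -0.22 (SE 0.08). In limma the test of the difference itself gave an unadjusted p of 0.016 and an adjusted p of 0.981, which does not pass, and across the alternatives with 1 library left out the adjusted p was 0.626 to 1.00. Replicate numbers were not shown to pair the libraries in CB. Among the 32 groups of 4 values examined, 0 held a library that stood far enough from the other 3 to be singled out, including replicate 3 of siControl CB for Apc.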

How the results depend on the processing

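Of 400 values of the 8 genes under settings other than leaving out 1 library, 348 kept their direction and their side of the threshold, 38 changed sign, 7 lost their call and 7 gained one. When 1 library was left out, 593 of 640 kept both. The values that changed sign are given here. With scaling to total listed reads, Gsk3a was at 0.016 for siAPC in CB, and for siAPC in Ps Gsk3a was at 0.067, Gsk3b at 0.15, Csnk1a1 at 0.10, Ctnnb1 at 0.056 and Fbxw11 at 0.13. For Ps against CB it gave -0.26 for Gsk3a, -0.12 for Csnk1a1, -0.25 for Ctnnb1 and -0.27 for Btrc in siControl, of which Gsk3a, Ctnnb1 and Btrc were called lower, and -0.13 for Gsk3b and -0.14 for Btrc in siAPC. For log2(Diff FC) it gave 0.024 for Axin1, 0.050 for Gsk3a, 0.13 for Csnk1a1, 0.14 for Btrc and 0.076 for Fbxw11. With quantile normalization, siAPC in Ps was 0.0023 for Gsk3b and 0.016 for Fbxw11, Ps against CB in siControl was 0.0027 for Gsk3b and -0.046 for Ctnnb1, in siAPC 0.030 for Gsk3a, and log2(Diff FC) was 0.032 for Csnk1a1 and 0.0013 for Fbxw11. With array weights, siAPC in CB was -0.010 for Btrc and -0.037 for Fbxw11, Ps against CB was -0.020 for Gsk3a and 0.0063 for Gsk3b in siControl and -0.026 for Gsk3b in siAPC, and log2(Diff FC) was -0.033 for Gsk3b and 0.018 for Btrc. With median centring Gsk3a was at 0.022 for siAPC in CB and 0.013 for Ps against CB in siAPC. Omitting the 4 libraries with a negative GC trend put Fbxw11 at -0.044 for siAPC in CB, Gsk3b at -0.033 for Ps against CB in siAPC, and log2(Diff FC) at -0.0034 for Gsk3b, 0.019 for Btrc and 0.016 for Fbxw11. The log2 ratio of Gsk3a to Gsk3b then changed by 0.021 for Ps against CB in siAPC, and that of Btrc to Fbxw11 by 0.050 for siAPC in CB. The cause of these sign changes was not tested.

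With 1 library left out, Btrc ranged from -0.015 to 0.044 for siAPC in CB, -0.013 to 0.045 in Ps, -0.011 to 0.048 for Ps against CB in siControl, -0.0095 to 0.049 in siAPC and -0.034 to 0.029 for log2(Diff FC). Gsk3a ranged from -0.080 to 0.039 for siAPC in CB, and for Ps against CB from -0.034 to 0.086 in siControl and from -0.087 to 0.0052 in siAPC. Gsk3b ranged from -0.093 to 0.020 for siAPC in Ps and from -0.053 to 0.060 for Ps against CB in siAPC, Fbxw11 from -0.025 to 0.067 for siAPC in CB, and Csnk1a1 from -0.094 to 0.031 for log2(Diff FC). The log2 ratio of Gsk3a to Gsk3b ranged from -0.033 to 0.20 for siAPC in CB, -0.14 to 0.052 in Ps, -0.026 to 0.21 for Ps against CB in siControl and -0.12 to 0.059 in siAPC, and that of Btrc to Fbxw11 from -0.048 to 0.031 for siAPC in CB.

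The number of the 8 genes called for siAPC in Ps was 2 with the replicate block, which added Axin1, and 1 to 2 with 1 library left out. For Ps against CB in siControl it was 2 to 4 with 1 library left out. The replicate block also added Csnk1a1 for Ps against CB in siAPC and changed no other call of the 8 genes. Csnk1a1 also gained that call with quantile normalization, median centring and the filter on low values. By the rule for Ps-enriched RNAs in siControl, 1 gene (Apc) passed with array weights, 1 when the libraries with a negative GC trend were omitted, and 0 to 1 with 1 library left out. Over all genes, 1743 were called for siAPC in CB and 3438 with array weights. Without replicate 4 of siAPC CB, 731 were higher and 427 lower, a share of 8.9%. For log2(Diff FC) 3 were called, and between 0 and 10 under the other settings with all libraries. Apc had 29 to 269 reads per library and an SE of 0.25, beside 0.06 to 0.09 for the other 7, and for siAPC in CB its SE was 0.20 without replicate 3 of siControl CB and 0.18 when the 4 libraries with a negative GC trend were omitted.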
